A study of Mus musculus with 6 samples.

Results

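The genes described here are 42 genes of central carbon metabolism in mouse embryonic stem cells (ESCs), taken from the 53927 gene symbols of the deposited tables by symbol alone. They comprise 25 genes of glycolysis and of the handling of lactate and pyruvate, 6 genes of the pentose phosphate pathway, and 11 genes of the tricarboxylic acid (TCA) cycle and its cytosolic or NADP-linked relatives. Wild-type ESCs were grown in N2B27, a medium without serum, and RNA-seq gave 3 libraries for each of 2 inhibitor mixes. PD0325901 at 1 µM, which blocks the kinase MEK, was in every culture. In 2i it was joined by 3 µM CHIR99021, which blocks GSK3 alpha as well as GSK3 beta. In BRD0705/PD03 it was joined by 8 µM BRD0705, an inhibitor selective for GSK3 alpha. The cell line label reads E14, which is an established male line, but the protocol for growth describes B6D2F1 ESCs derived and expanded on feeders in each medium, and the labels do not settle which cells were used. They also do not say whether libraries of a group are separate cultures; p-values then measure only the spread between these samples, which may be technical.

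Glycolysis turns glucose into pyruvate in the cytosol. Pyruvate is then either reduced to lactate and exported, or enters mitochondria, where the pyruvate dehydrogenase complex passes it to the TCA cycle as acetyl-CoA. The pentose phosphate pathway branches off after the hexokinase step; its oxidative arm yields NADPH and its non-oxidative arm exchanges sugars with glycolysis and supplies ribose for nucleotides. Naive ESCs, the state that 2i maintains, are known to use both glycolysis and respiration, while primed cells are known for a more glycolytic metabolism.

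Totals ranged from 16968959 to 51180228 counts per library. All 12 ESC markers examined were detected, with summed levels of 3661 to 3839 CPM (reads of a gene, scaled so that libraries of unequal depth compare) in BRD0705/PD03 and 5485 to 5689 CPM in 2i. Of these markers 4 were higher in BRD0705/PD03 (Zfp42, Utf1, Sall4 and Tdgf1) and Sox2 did not pass the test. The 7 that were lower are Tfcp2l1, Klf4, Dppa5a, Nanog, Esrrb, Fgf4 and Pou5f1. Klf4 stood at 122 ± 4.33 against 293 ± 2.67 CPM, Dppa5a at 418 ± 8.54 against 888 ± 66.5 CPM and Nanog at 324 ± 20.3 against 625 ± 8.52 CPM. Tfcp2l1, at 423 ± 50.2 against 1314 ± 71.2 CPM, made up the largest part of the difference in the sums. Of 20 fibroblast markers, 19 were higher in BRD0705/PD03 and 0 lower, none was at 0, and their sum was 1216 to 1772 CPM against 639 to 668 CPM. The largest folds among them were those of Tagln (63.5 ± 3.42 against 5.07 ± 0.801 CPM), Acta2 (60.6 ± 3.38 against 10.3 ± 0.623 CPM) and S100a4 (9.62 ± 1.12 against 2.93 ± 0.134 CPM). Feeder cells are fibroblasts. Beside these counts of markers, 30.1% of all genes tested were higher and 31.4% lower. Of 9 markers of primitive endoderm 8 were tested, of which 4 were higher (Col4a1, Pdgfra, Dab2 and Foxa2), 2 lower (Lama1 and Gata4) and 2 not called, and their sum was 106 to 136 CPM in BRD0705/PD03 and 203 to 227 CPM in 2i, mostly from Lama1 in 2i. Of those that define the type, Gata6, Sox7 and Sox17 stayed under 1 CPM in every library, and Gata4 reached 1.07 CPM in 1 library of 2i. The Y-linked gene Ddx3y stood at 114 to 127 CPM in BRD0705/PD03 and 2.84 to 3.32 CPM in 2i, and Xist, the RNA that silences an X chromosome, at 12.0 to 17.4 CPM and 8.49 to 9.99 CPM. These libraries are bulk RNA, in which fewer cells of a type and less RNA per cell cannot be told apart.

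Promoters of 3 members are printed because the 5-letter core ACGTG, which hypoxia-inducible factors bind, and the 6-letter E-box CACGTG, which Myc and related factors bind and which contains that core, are known from glycolytic promoters. The 3 were chosen after the values were seen, among called members with ACGTG at several positions before the start. Of them Ldha and Hk2 were lower in BRD0705/PD03 and Slc16a3 was higher. Each is the 250 bases before an annotated start in RefSeq on GRCm38.p6, read on the gene's own strand, with ACGTG on either strand in capitals. Ldha has 2 annotated starts, of which the 1 with most matches is shown (chr7:46845554-46845803, plus strand), Hk2 has 1 (chr6:82774455-82774704, minus strand), and Slc16a3 has 1 (chr11:120948817-120949066, plus strand).
Ldha: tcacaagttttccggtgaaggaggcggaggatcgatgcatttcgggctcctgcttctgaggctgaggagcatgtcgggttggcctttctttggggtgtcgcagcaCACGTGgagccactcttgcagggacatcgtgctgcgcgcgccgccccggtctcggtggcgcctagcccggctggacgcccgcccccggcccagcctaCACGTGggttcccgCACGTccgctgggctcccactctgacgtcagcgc
Hk2: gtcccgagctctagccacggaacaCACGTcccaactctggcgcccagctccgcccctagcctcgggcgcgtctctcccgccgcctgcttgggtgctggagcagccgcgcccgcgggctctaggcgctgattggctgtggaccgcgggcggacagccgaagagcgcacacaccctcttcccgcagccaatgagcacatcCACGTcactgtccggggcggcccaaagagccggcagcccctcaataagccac
Slc16a3: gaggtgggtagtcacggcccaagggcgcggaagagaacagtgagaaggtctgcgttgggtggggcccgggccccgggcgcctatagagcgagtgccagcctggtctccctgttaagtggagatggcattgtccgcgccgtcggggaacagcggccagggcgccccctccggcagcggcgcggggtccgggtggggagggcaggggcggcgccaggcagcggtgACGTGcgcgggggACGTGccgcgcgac
The Ldha promoter held the core at 3 places, 2 of which are complete E-boxes beginning 145 and 48 bases before the start. The Hk2 promoter held it at 226 and 52 bases before the start, and the Slc16a3 promoter at 27 and 14 bases.

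RefSeq gave promoter windows, from 250 bases before to 50 after a start, for 40 of the 42 members. ACGTG was present on either strand in at least 1 window of 18 members (45.0%), beside 21.8% of all 27025 genes in the table. Of those 18 members 3 were called higher in BRD0705/PD03, 11 lower and 4 not called, beside 10, 25 and 7 of all 42. The E-box CACGTG was present in 4 members (10%), beside 8.09% of all genes. ATCAAAG, the letters bound by the TCF/LEF factors of the Wnt pathway, was found in 1 member, Taldo1 (2.5%, beside 4.29%), and the Esrrb motif TCAAGGTCA in 0 members (beside 0.466%). Members and genes with several starts have several windows, and a match is not a measured binding site. Members had more windows per gene than all genes did. By window, ACGTG was in 25 of the 59 windows of members, beside 19.6% of all 32851 windows. All genes include many not expressed here, so the shares are not matched for expression.

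All 42 members passed the filter on low counts. In the quasi-likelihood test of edgeR at an adjusted p under 0.05, 10 members were higher in BRD0705/PD03, 25 were lower and 7 did not pass, which is 83.3% called. Over all 20422 genes tested 61.4% were called, 30.1% higher and 31.4% lower, and among genes that averaged 10 CPM or more, as nearly all members do, 73.2% were called, 33.1% higher and 40.1% lower. Groups did not overlap for 36 members, beside 66.0% of all genes and 76.8% of those with at least 10 CPM. A call together with a fold of 1.5 or more was reached by 13 members, 4 of them higher (Eno3, Pdk1, Pfkm and Slc16a3) and 9 lower (Idh3g, Hk1, Pdha1, G6pdx, Idh1, Ldha, Pgk1, Slc2a3 and Sucla2), beside 34.6% of all genes and 25.0% of those with at least 10 CPM. The median log2 fold change of the members, BRD0705/PD03 over 2i, was -0.18, beside 0.00 for all genes and -0.04 for those with at least 10 CPM.

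**Figure D1:**
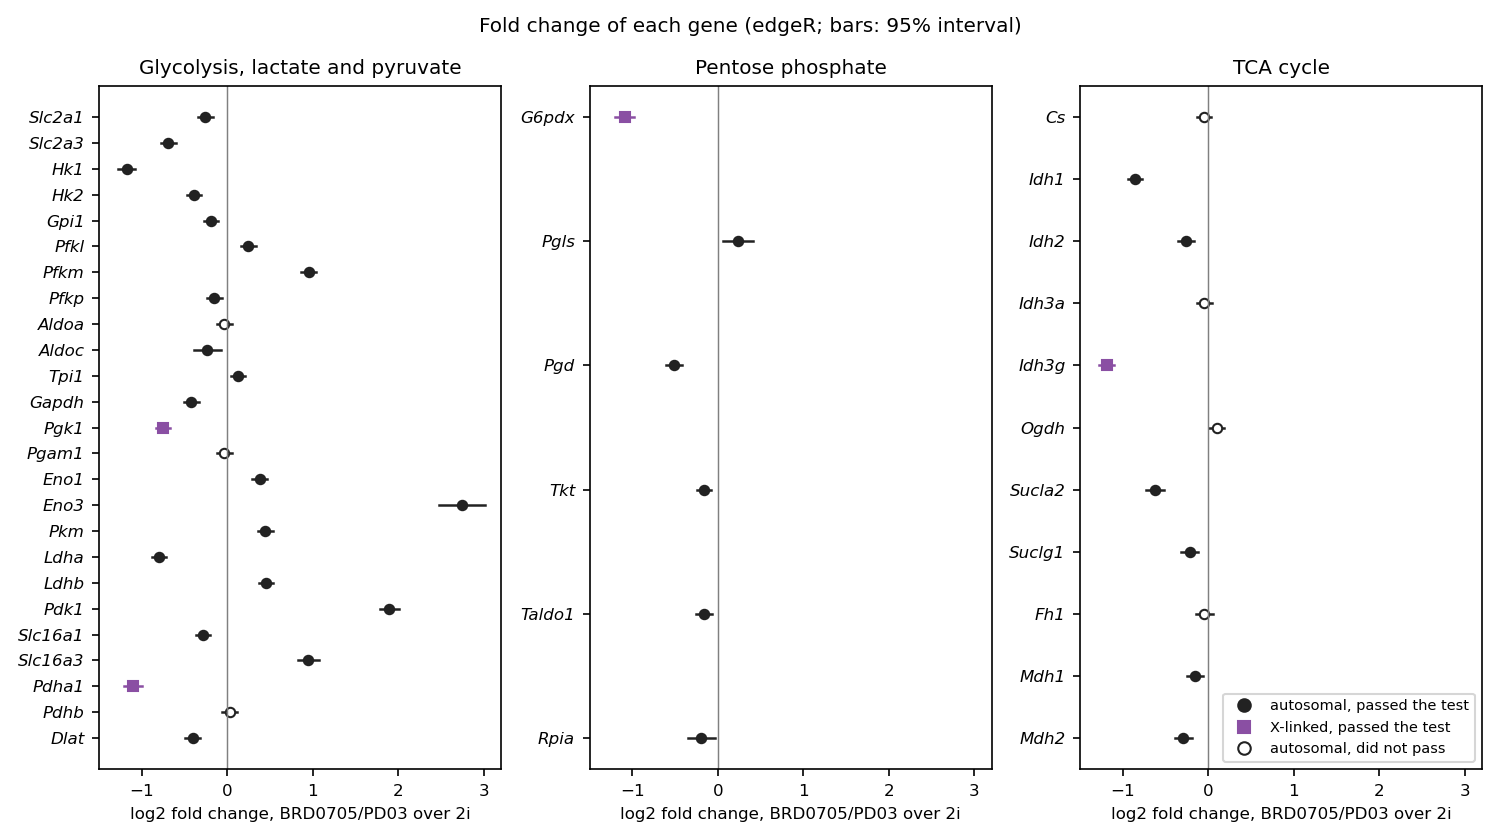
Log2 fold change of each gene, BRD0705/PD03 over 2i, with its 95% interval, for the 3 pathways; filled symbols passed the test and squares are X-linked. Members of glycolysis lie on both sides of 0. Below 0 and past the test lie 7 of the 11 TCA members and 5 of the 6 pentose phosphate members. Of all genes with at least 10 CPM, 40.1% were called lower. All 4 X-linked members are lower.

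Summed over its 25 genes, glycolysis with lactate and pyruvate handling took 12200 ± 200 CPM (SD, n = 3) in BRD0705/PD03 and 13190 ± 190 CPM in 2i, a ratio of 0.925. The 6 pentose phosphate genes took 862 ± 12.9 against 1064 ± 40 CPM, a ratio of 0.811. The 11 TCA genes took 1415 ± 20.4 against 1782 ± 52.3 CPM, a ratio of 0.794. Each of these sums was lower in every BRD0705/PD03 library than in every 2i library. For glycolysis this does not hold once reads of near-identical copies, described below for Gapdh and Eno1, are added to their parent genes, a choice made after the data were seen. The sum then came to 16116 ± 239 against 16294 ± 361 CPM, a ratio of 0.989 with overlapping groups, while the ratios of the pentose phosphate (0.810) and TCA (0.794) sums hardly moved. Without the 4 X-linked members the ratios were 0.974, 0.856 and 0.840, and the glycolysis sums of the groups overlapped; with copies added and without the X-linked members the glycolysis ratio was 1.05, with groups that did not overlap. The sum of fibroblast markers was higher in BRD0705/PD03, as given above, and the part of fibroblast RNA in the pathway sums was not tested.

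Both glucose transporters among the members, which bring glucose across the plasma membrane, were lower in BRD0705/PD03. Of transporters in the wider list, picked out once the data were known, Slc2a4, Slc2a6 and Slc2a10 were higher and Slc2a8 lower. All of those were at lower levels than the members. Slc2a3 (GRCm38 chromosome 6, 122727809 to 122801640), the high-affinity transporter GLUT3, stood at 1079, 1127 and 1131 CPM in the 3 BRD0705/PD03 libraries and at 1784, 1768 and 1839 CPM in those of 2i. The groups lie far apart and each is tight. Its log2 fold change was -0.69 ± 0.041 (SE), 1.62-fold lower (adjusted p = 3.86e-11). Slc2a1, the transporter GLUT1, was 1.2-fold lower, at 145 ± 4.59 against 173 ± 5.37 CPM. Per kilobase of its principal transcript Slc2a3 was the more abundant of them in both media, at 281 ± 7.24 and 454 ± 9.41 CPM, against 44.5 ± 1.41 and 53.2 ± 1.65 CPM for Slc2a1.

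Of the 9 genes of the preparatory steps, which spend ATP to turn glucose into triose phosphates, 3 were higher, 5 lower and 1 did not pass. Among all genes with at least 10 CPM, 33.1% were called higher and 40.1% lower. Hexokinases phosphorylate glucose on entry, and both measured here were lower. Hk1 stood at 30.4, 28.6 and 30.3 CPM in BRD0705/PD03 and at 66.8, 66.2 and 69.6 CPM in 2i, which is less than 1 in 2 of the 2i level in every library. Its log2 fold change was -1.18 ± 0.049 (adjusted p = 1.83e-13). Hk2, the inducible form that took most hexokinase reads here, was 1.31-fold lower, at 295 ± 5.96 against 387 ± 6.56 CPM. As a share of all hexokinase reads per transcript length, Hk1 therefore made up 12.6% ± 0.437 in BRD0705/PD03 and 19.9% ± 0.439 in 2i, and Hk2 87.2% ± 0.543 and 79.7% ± 0.535. With lengths from the union of all annotated exons the shares of Hk1 were 6.60% and 10.9%, in the same direction.

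Phosphofructokinase, which commits sugar to glycolysis, has liver (Pfkl), muscle (Pfkm) and platelet (Pfkp) forms, and these moved apart. Pfkm stood at 108, 109 and 106 CPM in BRD0705/PD03 and at 56.3, 55.9 and 55.0 CPM in 2i. Its libraries differ by less than 3 CPM within a group while the groups differ about as 2 to 1. The log2 fold change of Pfkm was 0.95 ± 0.041 (adjusted p = 3.55e-13). Pfkl was higher by 0.25 ± 0.041 on the log2 scale, and Pfkp, the most abundant form in both media, was lower (log2 fold change -0.15 ± 0.040). Their shares per transcript length were 22.7% for Pfkl, 8.01% for Pfkm and 69.3% for Pfkp in 2i, and 25.7%, 14.8% and 59.6% in BRD0705/PD03. With lengths from the union of exons Pfkm took 16.8% in 2i and 28.0% in BRD0705/PD03, so the direction held and the level of the share depends on the length used.

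The remaining preparatory genes moved less. Gpi1, which converts glucose 6-phosphate to fructose 6-phosphate, was lower (log2 fold change -0.19 ± 0.038), as was the minor aldolase Aldoc (-0.23 ± 0.075). The call for Aldoc was lost without the third BRD0705/PD03 library (log2 fold change -0.21) and without the first 2i library (-0.17). Aldoa, which makes up over 99% of aldolase reads per transcript length, stood at 1355 ± 28.4 against 1387 ± 36.5 CPM, with overlapping groups and a log2 fold change whose 95% interval runs from -0.12 to 0.052. Tpi1, which interconverts the triose phosphates, was higher by 0.12 ± 0.038 on the log2 scale.

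The payoff steps, in which ATP and NADH are recovered, were the only stage among those compared here whose summed level was higher in BRD0705/PD03, at 5894 ± 108 against 5476 ± 153 CPM, a ratio of 1.08, or 9780 ± 139 against 8572 ± 322 CPM (1.14) with near-identical copies added. Pkm alone took 3323 ± 64.9 against 2440 ± 56.5 CPM. That gap is wider than the gap of the sum without copies, so the other payoff genes together were then lower in BRD0705/PD03. With copies added they were not. The sum of fibroblast markers was higher in the same libraries (1216 to 1772 against 639 to 668 CPM), and its part in the payoff sum was not tested. Of the 6 payoff genes 3 were higher (Pkm, Eno1 and Eno3), 2 lower (Gapdh and Pgk1) and 1 did not pass (Pgam1). All genes tested had 30.1% higher and 31.4% lower, and those with at least 10 CPM 33.1% and 40.1%. Pkm, pyruvate kinase, stood at 3272, 3396 and 3299 CPM in BRD0705/PD03 and at 2472, 2474 and 2375 CPM in 2i. Each BRD0705/PD03 library lies well above each 2i library. The log2 fold change of Pkm was 0.45 ± 0.042 (adjusted p = 3.19e-08), and that of Eno1, enolase, was 0.38 ± 0.042. Eno3 (chromosome 11, 70657202 to 70662513), the muscle enolase, stood at 11.4, 10.7 and 9.93 CPM in BRD0705/PD03 and at 1.78, 1.66 and 1.34 CPM in 2i. This was the largest fold among the members, 6.70-fold (log2 2.75 ± 0.130, adjusted p = 1.2e-12), at a low level, under 1% of enolase reads per transcript length in either medium. Phosphoglycerate mutase Pgam1 stood at 681 ± 18.5 against 698 ± 30.5 CPM, with a 95% interval of its log2 fold change from -0.12 to 0.055.

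**Figure D2:**
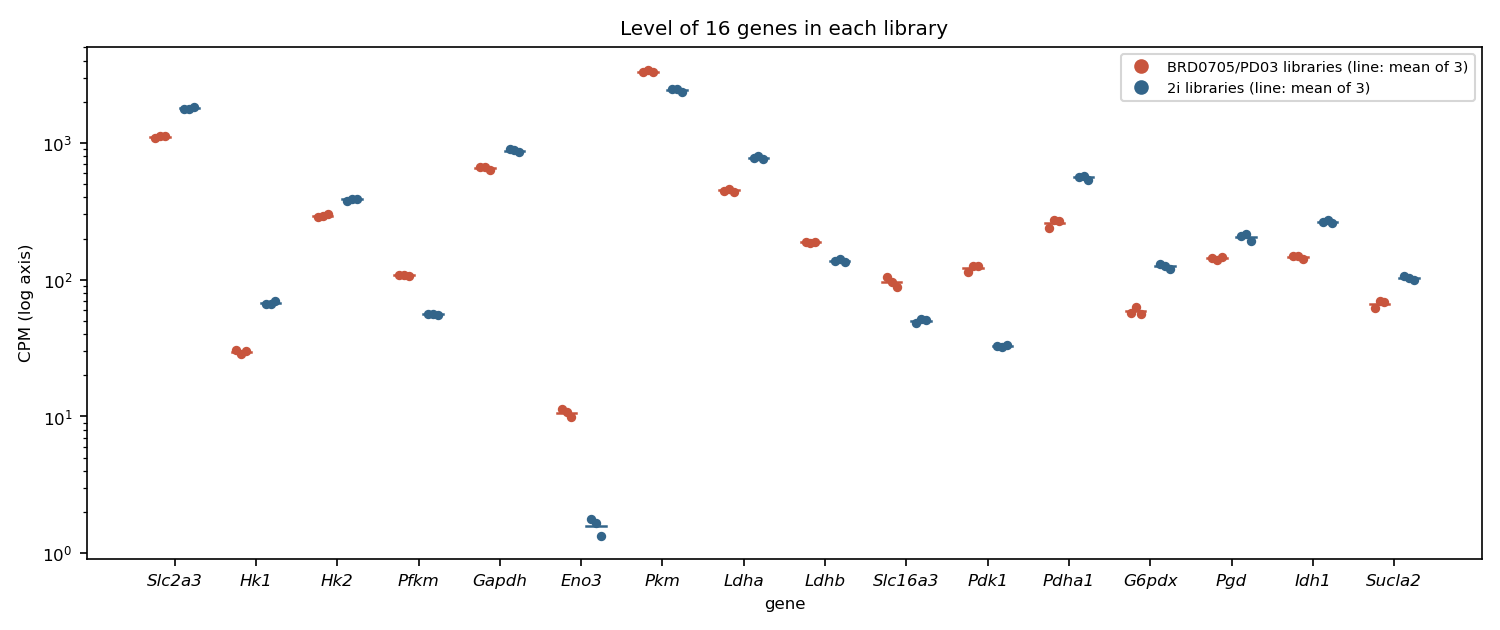
Level of 16 genes in each library, in CPM on a log axis, with the mean of each group as a line. For each of these genes the 3 BRD0705/PD03 libraries lie all above or all below the 3 libraries of 2i; Eno3 shows the largest separation and Hk2 and Gapdh are among the smallest.

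Reads of several payoff genes are shared with near-identical copies in the genome, and for Gapdh this changes the direction. Gapdh alone stood at 667, 666 and 631 CPM in BRD0705/PD03 and at 897, 881 and 854 CPM in 2i, lower in BRD0705/PD03 in every library (log2 fold change -0.42 ± 0.041). The annotation holds 179 copies of Gapdh with at least 90% identity over at least 80% of the copy, and they took 69.5% to 70.8% of the combined reads in BRD0705/PD03 and 51.7% to 54.7% in 2i. One processed pseudogene, Gm13394 on chromosome 2, is 99.9% identical and was assigned 1460 ± 10.4 against 828 ± 37.9 CPM, more than the gene itself in BRD0705/PD03. Another, Gm12671, is 100% identical and was assigned 0 CPM in all 3 BRD0705/PD03 libraries and from 39.0 to 157 CPM in 2i. With the copies added to the gene, a choice made after the data were seen, Gapdh came to 2180 ± 19 against 1871 ± 93.6 CPM and was higher in BRD0705/PD03 (log2 fold change 0.22 ± 0.045). Which copy a read came from cannot be told from estimated counts, so the direction of Gapdh is uncertain.

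Other members with copies kept their direction when the copies were added. Eno1 has 6 copies, which took 76.0% to 77.4% of the combined reads in all libraries, led by the retrogene Eno1b (1528 ± 39.4 against 1202 ± 60.1 CPM) and the pseudogene Gm4735 (549 ± 34.8 against 451 ± 26.5 CPM). Gene and copies of Eno1 moved alike, and together they gave 0.34 ± 0.046 on the log2 scale. For the X-linked gene Pgk1, 3 copies took 28.6% to 30.5% of the reads, and the sum gave -0.77 ± 0.041. The Gpi1 copy Gm1840 on chromosome 8 was assigned 25.4 ± 1.40 CPM in BRD0705/PD03 and 0.529 ± 0.34 CPM in 2i, and adding it moved Gpi1 from -0.19 to -0.10 ± 0.038. No other member had copies with more than 0.864% of the combined reads in any library.

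**Figure D3:**
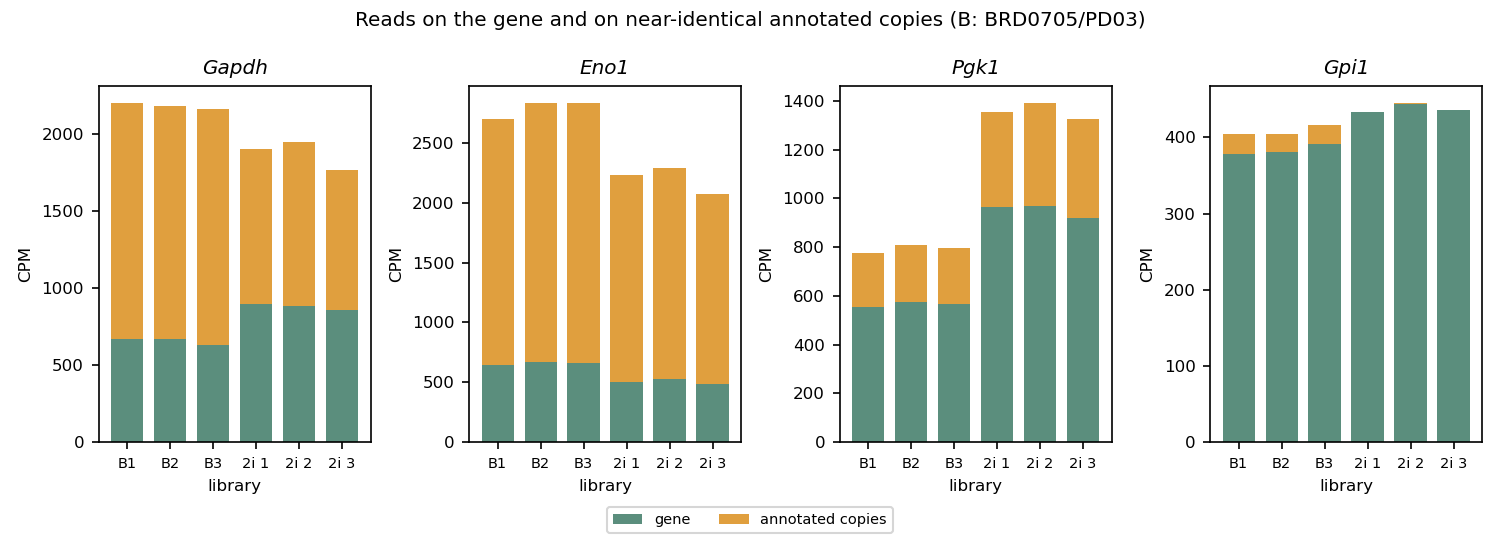
Reads assigned to Gapdh, Eno1, Pgk1 and Gpi1 and to their near-identical annotated copies, in CPM, stacked for each library (B, BRD0705/PD03). The Gapdh segment is shorter in BRD0705/PD03 while the whole bar is taller (2180 against 1871 CPM on average); for Eno1 and Pgk1 both segments move in the same direction.

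At the branch from pyruvate to lactate, the lactate dehydrogenase genes moved in opposite directions. Ldha (chromosome 7, 46841475 to 46855627), whose enzyme favours making lactate, stood at 449, 462 and 440 CPM in BRD0705/PD03 and at 777, 799 and 769 CPM in 2i. Ldhb (chromosome 6, 142490249 to 142507957), whose enzyme favours the reverse reaction, stood at 188, 187 and 188 CPM and at 137, 141 and 134 CPM. Neither gene's groups overlap, and the spread within a group is a few percent. The log2 fold changes were -0.80 ± 0.040 for Ldha (adjusted p = 2.75e-12) and 0.45 ± 0.039 for Ldhb (adjusted p = 8.84e-09). Per transcript length, Ldha made up 63.9% ± 0.643 of lactate dehydrogenase reads in BRD0705/PD03 and 80.7% ± 0.0996 in 2i, and Ldhb 36.1% ± 0.651 and 19.2% ± 0.145.

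The monocarboxylate transporters, which carry lactate and pyruvate across the plasma membrane, also moved apart. Slc16a3, the transporter MCT4 known for lactate export from glycolytic cells, stood at 105, 95.7 and 88.9 CPM in BRD0705/PD03 and at 48.1, 51.2 and 50.3 CPM in 2i. Its 3 BRD0705/PD03 libraries spread more than most members do, yet the lowest lies well above the highest of 2i. The log2 fold change was 0.95 ± 0.057 (adjusted p = 2.53e-10). Slc16a1, the transporter MCT1, was lower (278 ± 10.3 against 339 ± 6.82 CPM, log2 fold change -0.29 ± 0.041), and the share of Slc16a3 among these transporters was 26.2% ± 2.22 against 13.1% ± 0.378.

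Entry of pyruvate into the TCA cycle is set by the pyruvate dehydrogenase complex and by the kinases that switch it off. Pdk1 (chromosome 2, 71873224 to 71903858), 1 of these kinases, stood at 113, 126 and 125 CPM in BRD0705/PD03 and at 32.7, 32.3 and 33.1 CPM in 2i. No 2i library came near any BRD0705/PD03 library, and the 3 of 2i were almost equal. The fold was 3.72 (log2 1.89 ± 0.051, adjusted p = 2.83e-16), the smallest p among the members. The X-linked Pdk3, from the wider list of glycolysis and pyruvate genes, stood at 35.4 against 60.2 CPM (log2 fold change -0.77). Per transcript length Pdk1 thus made up 55.1% ± 1.58 of the kinase reads in BRD0705/PD03 and 16.9% ± 0.455 in 2i, and Pdk3 39.5% ± 1.14 and 76.2% ± 0.722, so that the leading kinase differed between the media.

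Of the complex itself, Pdha1, the X-linked alpha subunit of the E1 enzyme on which the kinases act, stood at 240, 275 and 269 CPM in BRD0705/PD03 and at 567, 576 and 536 CPM in 2i. Every library of BRD0705/PD03 was close to 1 in 2 of the 2i level or below. Its log2 fold change was -1.10 ± 0.050 (adjusted p = 3.47e-12). Pdhb, the beta subunit of the same enzyme, stood at 213 ± 6.57 against 210 ± 8.14 CPM, with overlapping groups and a 95% interval of its log2 fold change from -0.061 to 0.11. Dlat, the E2 core, was lower by 1.32-fold, at 71.7 ± 1.22 against 94.9 ± 2.65 CPM.

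**Figure D4:**
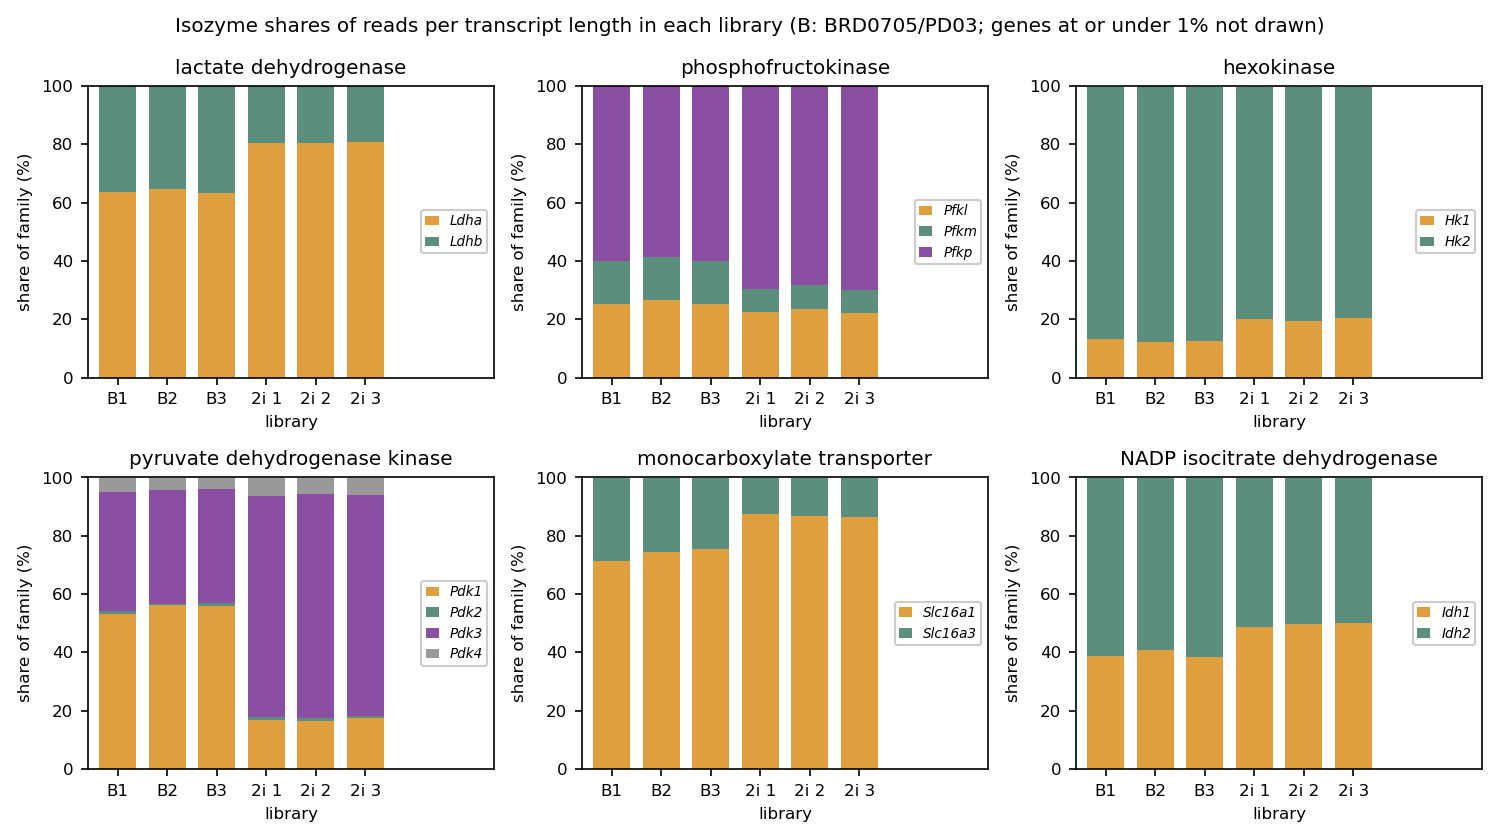
Share of each isozyme in 6 enzyme or transporter families, in percent of the family's reads per transcript length, for each library (B, BRD0705/PD03). In 2i and BRD0705/PD03 Ldha made up 80.7% and 63.9%, Pdk1 16.9% and 55.1%, Pfkm 8.01% and 14.8% and Slc16a3 13.1% and 26.2%, and libraries of a group differ little.

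All 6 pentose phosphate genes passed the test, 1 higher and 5 lower. Beside this, 61.4% of all genes and 73.2% of those with at least 10 CPM passed. In the oxidative arm, G6pdx, the X-linked glucose-6-phosphate dehydrogenase that opens the pathway and yields NADPH, stood at 57.5, 63.5 and 55.8 CPM in BRD0705/PD03 and at 130, 127 and 119 CPM in 2i. The lowest 2i library lies far above the highest of BRD0705/PD03. On the log2 scale G6pdx differed by -1.09 ± 0.051 (adjusted p = 1.84e-12). Pgd, the second NADPH-yielding enzyme, is autosomal and stood at 145, 140 and 146 CPM against 209, 216 and 193 CPM. Its groups do not overlap either, and the log2 fold change was -0.52 ± 0.045 (adjusted p = 8.21e-09). Pgls, the lactonase between them, stood at 21.7 ± 1.35 against 18.3 ± 2.13 CPM, higher by 0.24 ± 0.082 on the log2 scale. That call was lost without the first BRD0705/PD03 library (log2 fold change 0.19), without the first 2i library (0.25) and without the third 2i library (0.16).

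In the non-oxidative arm all 3 genes were lower, by 1.12- to 1.14-fold. Transketolase Tkt stood at 451 ± 8.24 against 506 ± 11.2 CPM (log2 fold change -0.16 ± 0.039). Transaldolase Taldo1 stood at 173 ± 4.72 against 193 ± 10.9 CPM (-0.16 ± 0.044). Rpia, the ribose-5-phosphate isomerase, stood at 13.3 ± 0.76 against 15.2 ± 0.595 CPM (-0.19 ± 0.075). The call for Rpia was lost in 5 of the 6 fits that left out 1 library, in which its log2 fold change ran from -0.20 to -0.15. The summed oxidative arm was at 0.642 of its 2i level, or 0.739 without G6pdx, and the non-oxidative arm at 0.893.

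Of the 11 TCA genes 0 were higher, 7 lower and 4 did not pass, which is 63.6% called. Beside this, 61.4% of all genes and 73.2% of those with at least 10 CPM were called. The 7 autosomal cycle enzymes had 3 lower and 4 that did not pass, with a median of -0.05. Their sum was at 0.912 of its 2i level. The 3 NADP-linked or cytosolic relatives (Idh1, Idh2 and Mdh1) were all lower, with a sum at 0.734. Citrate synthase Cs, which begins the cycle, stood at 297 ± 7.08 against 309 ± 6.89 CPM, with a 95% interval of its log2 fold change from -0.14 to 0.028. The isocitrate dehydrogenases differed among themselves. Idh3a, the catalytic subunit of the NAD-linked enzyme, stood at 107 ± 3.77 against 111 ± 2.95 CPM (interval -0.14 to 0.040). Idh3g, an X-linked regulatory subunit of the same enzyme, stood at 88.2, 91.2 and 87.2 CPM against 206, 205 and 197 CPM. Levels of Idh3g in BRD0705/PD03 are under 1 in 2 of those in 2i. Its log2 fold change was -1.19 ± 0.040 (adjusted p = 8.74e-15). That estimate is the lowest among the members, but Hk1, at -1.18 ± 0.049, did not differ from it beyond the standard errors.

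The NADP-linked isocitrate dehydrogenases were both lower. Idh1 (chromosome 1, 65158616 to 65186500), the cytosolic form, stood at 149, 149 and 140 CPM in BRD0705/PD03 and at 262, 272 and 260 CPM in 2i. The libraries of a group lie close together and the groups far apart. Idh1 differed by -0.86 ± 0.040 on the log2 scale (adjusted p = 1.05e-12), the largest decrease among the autosomal TCA members. Idh2, the mitochondrial form, was lower by 1.2-fold (170 ± 6.47 against 204 ± 7.69 CPM). Idh1 was 39.4% ± 1.19 of the pair per transcript length in BRD0705/PD03 and 49.5% ± 0.769 in 2i.

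Past isocitrate, Ogdh, the E1 enzyme of the oxoglutarate dehydrogenase complex, stood at 121, 128 and 128 CPM against 114, 119 and 120 CPM. Its groups do not overlap, but the log2 fold change of 0.10 ± 0.041 just missed the threshold (adjusted p = 0.0504), and the call was gained without the first BRD0705/PD03 library (0.13), without the second 2i library (0.12) and without the third (0.12). Sucla2, the ADP-forming beta subunit of succinyl-CoA ligase, stood at 61.6, 70.1 and 68.7 CPM against 106, 103 and 99.8 CPM. Every library of BRD0705/PD03 was below every library of 2i. Sucla2 differed by -0.62 ± 0.050 on the log2 scale (adjusted p = 2.53e-09). Sucla2 made up 59.2% ± 0.775 of the beta subunits per transcript length in BRD0705/PD03 and 67.4% ± 0.157 in 2i, the rest being the GDP-forming Suclg2. Suclg1, the shared alpha subunit, was lower by 0.22 ± 0.047 on the log2 scale.

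Fumarate hydratase Fh1 stood at 71.3 ± 0.774 against 73.4 ± 3.35 CPM (95% interval of its log2 fold change -0.14 to 0.049). The malate dehydrogenases were both lower. Mitochondrial Mdh2, which closes the cycle, stood at 119 ± 1.78 against 146 ± 10.5 CPM (log2 fold change -0.29 ± 0.048). Cytosolic Mdh1, part of the malate-aspartate shuttle, stood at 154 ± 7.23 against 171 ± 7.98 CPM (-0.15 ± 0.046).

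The 4 X-linked members (Pgk1, Pdha1, G6pdx and Idh3g) were each lower in BRD0705/PD03, with a median log2 fold change of -1.10. Pgk1, phosphoglycerate kinase, which makes ATP in the payoff phase, stood at 554, 575 and 566 CPM against 965, 969 and 921 CPM. The gap between groups is far wider than the spread within either. Its log2 fold change was -0.75 ± 0.040 (adjusted p = 7.61e-12). Among all 336 X-linked genes that averaged 10 CPM or more, 94.3% were called, 86.3% lower and 8.04% higher, with a median of -0.86. All 4 members were called at a fold of 1.5 or more with groups that do not overlap, beside 75.3% and 94.6% of those X-linked genes. The levels of Ddx3y given above show that Y-linked RNA also separated the groups, and sex-chromosome content and medium cannot be told apart here. Leaving out X-linked genes does not remove this limit. The labels do not settle which cells each group holds, so cell line and medium cannot be told apart for autosomal members either. Of the 38 autosomal members 10 were higher, 21 lower and 7 did not pass (81.6% called), with a median of -0.16. Of autosomal genes that averaged 10 CPM or more, 72.6% were called, 34.2% higher and 38.3% lower, with a median of -0.03. Groups did not overlap for 32 of the 38, beside 76.2%, and 9 were called at a fold of 1.5 or more, beside 23.2%. Glycolysis without its X-linked genes had 9 higher and 11 lower of 23 and a median of -0.03, and the TCA genes 0 higher and 6 lower of 10 and a median of -0.19.

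**Figure D5:**
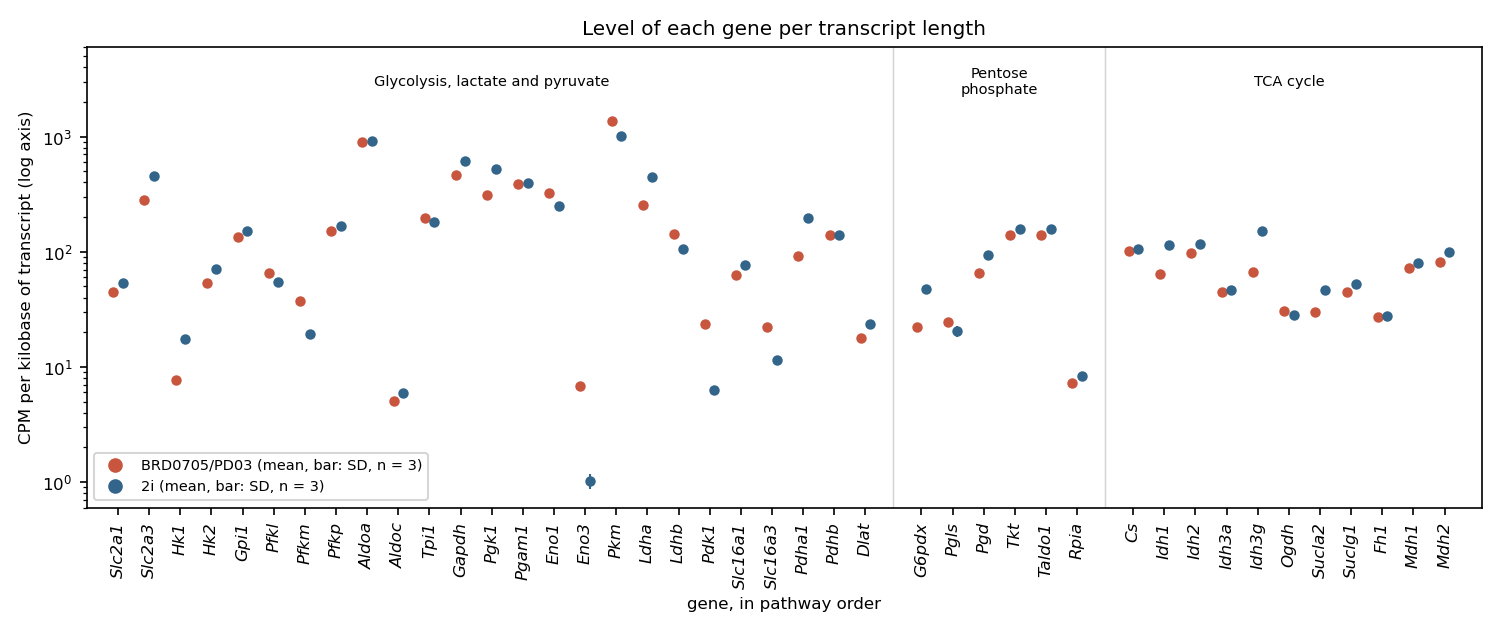
Level of each gene per kilobase of its principal transcript, as mean and SD of 3 libraries on a log axis, for the 3 pathways. Reads of near-identical copies are not included; counted so, Pkm and Aldoa are the most abundant in both media, and Eno3, Aldoc, Rpia and Hk1 are at the low end.

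Levels per transcript length spanned a wide range within each pathway. With each annotated gene counted on its own, Pkm led with 1366 ± 26.7 CPM per kilobase in BRD0705/PD03 and 1003 ± 23.2 in 2i, followed by Aldoa (897 ± 18.8 and 918 ± 24.1) and Gapdh (461 ± 14.4 and 618 ± 15.3, copies not included). Pkm lay above Aldoa by more than their spread in both media, and by less in 2i. With copies added the order changed, and Gapdh (1535 ± 13.3 and 1318 ± 65.9 CPM per kilobase) and Eno1 (1375 ± 37.1 and 1085 ± 55.2) stood beside or above Pkm (1368 ± 26.8 and 1005 ± 23.2). Eno1 and Pkm then did not differ beyond their spread in BRD0705/PD03. Among pentose phosphate genes Taldo1 and Tkt were the most abundant and did not differ from each other beyond their spread (141 ± 3.84 and 140 ± 2.56 in BRD0705/PD03, 157 ± 8.86 and 157 ± 3.47 in 2i). In the TCA cycle Idh3g was the most abundant in 2i (152 ± 3.57), while Cs (102 ± 2.42) and Idh2 (97.7 ± 3.71) led in BRD0705/PD03 and did not differ beyond their spread.

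The other genes of these pathways moved in both directions as well. Their counts stand beside 61.4% of all genes called, 30.1% higher and 31.4% lower. Of 39 further glycolysis and pyruvate genes tested, 13 were higher, 15 lower and 11 did not pass, with a median of -0.12. Among them Dld, the E3 subunit that the pyruvate and oxoglutarate dehydrogenase complexes share, rose to 83.7 ± 5.56 from 55.9 ± 2.77 CPM (log2 fold change 0.58). Pdp2, a phosphatase that reverses the action of the pyruvate dehydrogenase kinases, fell to 27 ± 0.843 from 57.2 ± 6.19 CPM (-1.08). Galm, which interconverts the anomers of sugars, was higher (0.85), and the X-linked Pfkfb1, 1 of the enzymes that set fructose 2,6-bisphosphate, was lower (-0.84). Under the symbol Pgm1 the tables gave 76.0 ± 2.02 against 22.9 ± 0.908 CPM (1.73), and under Pgm2 15.6 ± 1.69 against 61.6 ± 1.96 CPM (-1.98). Both are phosphoglucomutases, and because mouse annotations have exchanged these symbols, which locus each value belongs to is not settled.

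Across all genes tested 61.4% were called, and 73.2% of those with at least 10 CPM. Of 9 further pentose phosphate genes tested 2 were higher, 6 lower and 1 did not pass, with a median of -0.69. Among those with a mean of at least 5 CPM the largest decreases were those of the phosphoribosyl pyrophosphate synthetases Prps1 (93.3 ± 2.02 against 249 ± 3.10 CPM, log2 fold change -1.42) and Prps2 (96.7 ± 6.36 against 169 ± 0.928 CPM, -0.81), both X-linked, and of the autosomal H6pd, the glucose-6-phosphate dehydrogenase of the endoplasmic reticulum (-0.69). Tktl1 (X-linked, 0.726 against 1.92 CPM, -1.40) and Shpk (1.87 against 3.74 CPM, -1.01), picked out once the data were known, were lower too, at low levels. Idnk, a gluconokinase, was higher (0.28).

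Of 24 further TCA genes tested 6 were higher, 9 lower and 9 did not pass, with a median of -0.05. The share called was 61.4% over all genes and 73.2% over those with at least 10 CPM. Acly, which turns exported citrate into cytosolic acetyl-CoA, fell to 612 ± 15.3 from 933 ± 12.4 CPM (log2 fold change -0.61), and Dhtkd1, a relative of Ogdh in lysine breakdown, to 17.3 ± 0.783 from 34.1 ± 1.06 CPM (-0.98). Slc25a10, the dicarboxylate carrier, was also lower (-0.68). Sdhc, a membrane subunit of succinate dehydrogenase (0.45), the cytosolic aspartate aminotransferase Got1 (0.43) and D2hgdh, which oxidises D-2-hydroxyglutarate (0.40), were higher.

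Pdk1, Ldha, Slc2a1 and Bnip3 are known targets of hypoxia-inducible factors, and hypoxia-response genes outside these pathways were examined beside them. Of 24 tested 12 were higher, 6 lower and 6 did not pass, with a median of 0.10. Over all genes 61.4% were called, 30.1% higher and 31.4% lower, and 73.2% of those with at least 10 CPM. Bnip3, a mitophagy receptor, stood at 77.3 ± 3.31 against 31.7 ± 1.04 CPM (log2 fold change 1.29), and Fam162a, a hypoxia-induced mitochondrial protein, at 38.3 ± 2.40 against 14.6 ± 1.65 CPM (1.38). Lox, which crosslinks collagen and is also made by fibroblasts, stood at 223 ± 46.3 against 87.7 ± 3.54 CPM (1.35). The fibroblast markers were higher in the same libraries, and their part in the level of Lox was not tested. The angiogenic factor Vegfa (-0.72) and the Myc antagonist Mxi1 (-0.76) were lower. Ak4, a mitochondrial adenylate kinase, stood at 30.5, 32.2 and 33.1 CPM in BRD0705/PD03 and at 544, 554 and 595 CPM in 2i, 17.7-fold lower (log2 fold change -4.14, adjusted p = 1.22e-20). No library of either medium came near the other group for Ak4.

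Of 26 tested regulators of glycolysis 13 were higher, 9 lower and 4 did not pass, with a median of 0.10. All genes tested had 61.4% called, and those with at least 10 CPM 73.2%. The RNA-binding proteins Lin28a (381 ± 14.7 against 35.3 ± 1.07 CPM, log2 fold change 3.44) and Lin28b (73.6 ± 1.24 against 16.9 ± 0.997 CPM, 2.11) were higher, as was Epas1, the hypoxia-inducible factor 2 alpha (1.06). Prkaa2, a catalytic subunit of the energy sensor AMPK (-1.33), Vhl, which targets hypoxia-inducible factors for breakdown (-0.83), and Esrrb, a factor of naive pluripotency that binds genes of oxidative metabolism (-0.64), were lower. These lists describe RNA levels; flux, enzyme amounts and metabolites were not measured.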

How the data were processed

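Per the labels, RNA of 6 libraries was extracted from ESCs and sequenced after depletion of ribosomal RNA. The authors deposited 1 table per library with whole numbers for 53927 symbols; per the submitters' processing notes Salmon and the build mm10 were used, so these were taken as rounded estimated counts, unscaled between libraries. The processing notes name no Salmon version, annotation or strand setting (not given in the sources used here). Such counts divide reads among near-identical genes.

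Group and replicate were read from each sample's title. The test was that of edgeR 4.0.16 in R 4.3.3 (quasi-likelihood test, filterByExpr, TMM, robust, group only, two-sided), with Benjamini-Hochberg adjustment over 20422 genes and a threshold of 0.05. CPM use effective library sizes, means carry the SD (n = 3), and standard errors are the log2 fold change over the square root of F. Same-numbered libraries did not deviate together (correlations -0.0547, 0.0877 and -0.0496), and no pair of replicates agreed within sampling noise (chi-square per degree of freedom 2.77 to 9.84). Lengths are of the principal transcript and positions of the gene in GENCODE M21 (GRCm38); 51945 symbols matched 1 gene, 110 several and 1872 none. Aldoa matched 2 gene models and was given the length of the one with the older identifier. Copies were annotated transcripts of at least 200 bases with at least 90% identity to a member over at least 80% of their length, found with blastn 2.17.0. Isozyme shares, pathway sums and promoter motifs (letters searched on both strands of the RefSeq windows of GRCm38.p6) are descriptions without a test. Scripts were tested on simulated data, where 150 genes were called and 17 of these calls were false. Recovery was 32% for genes simulated to differ 1.2 times, 60% for 1.5 times, 76% for 2 times and 98% for 4 times. Most simulated differences of the smallest size were thus missed. Far fewer genes differed there than were called in these data, so these rates are not known to carry over.

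The members and gene lists were chosen with earlier results of these data known. Every member is named. Of each further list, up to 3 genes with the highest and 3 with the lowest log2 fold change among those called with a mean of at least 5 CPM are named, together with genes of the isozyme families. Further cell type markers are named as well. Alternatives were median-ratio and upper-quartile factors, DESeq2 1.42.0, no filter, a mean of at least 1 CPM, each library left out, a null fold of 1.5, a block for replicate number, and omission of genes on chromosomes X and Y; sums of genes and copies (for tests, pathway sums and levels per length), and lengths from the union of exons, were added after the data were seen.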

Additional observations from a re-analysis of the deposited data

How the results depend on the processing

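With a null fold of 1.5 instead of no change, genes called higher in BRD0705/PD03 numbered 2498 and genes called lower 2596, with 4 higher and 5 lower in glycolysis, 0 higher and 1 lower in the pentose phosphate pathway, and 2 lower in the TCA cycle. With near-identical copies summed into their parent, chosen after the data were seen, Gapdh reversed to a log2 fold change of 0.22; the reads of the copies, which were relatively more in BRD0705/PD03, are what that sum adds. The TCA genes called higher became 1, Ogdh, with median-ratio factors, upper-quartile factors, no filter, a mean of at least 1 CPM, the replicate block and copies summed; the cause was not tested. Leaving out each library gave 0 to 1 TCA genes called higher (Ogdh) and 0 to 1 pentose phosphate genes called higher (Pgls). The numbers did not pair the libraries; with the replicate block 11 members were higher and 25 lower, and 60.9% of all genes were called. Upper-quartile factors moved the median of all genes by 0.066 on the log2 scale; with them Aldoc and Rpia lost their calls and Pdhb and Ogdh gained one. With DESeq2 10 members were higher and 23 lower, Aldoc and Rpia losing their calls, and without a filter Rpia lost its call. No other called member changed sign in these alternatives. Among members not called, Aldoa, Pgam1, Cs, Idh3a and Fh1 changed sign with upper-quartile factors, Pgam1 and Fh1 also without the second 2i library, and Pdhb came to 0.00 without the second BRD0705/PD03 library, none of them passing the test there. Differences in the 26 isozyme shares followed, those of members, kept their sign. Over all alternatives they moved by more than the spread between replicates in 27 cases and by less in 181. The share of Pdk2, with overlapping groups, went from 0.946% against 0.991% in 2i to 0.902% against 0.872% with lengths from the union of exons. Shares above 1% that moved by over 1.5 times with lengths from the union of exons were, in BRD0705/PD03 and 2i, Slc2a1 (21.1% and 16.6%), Hk1, Pfkm and Eno1 (13.0% and 12.8%). With reads not divided by length Pdk1 took 73.8% and 32.2% and Pdk3 21.6% and 59.4%. Depth ranged from 16968959 to 51180228 counts; low genes such as Rpia, Aldoc and Pgls are the least certain.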
